A study of Homo sapiens with 3 samples.

Results

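The proteasome subunit genes are 36 protein-coding genes that encode the core, the cap and the activators of the proteasome. They were chosen by name from 19866 protein-coding genes of the human reference, and all 36 names matched a gene. They comprise 7 alpha and 7 beta subunits of the 20S core, 6 ATPases and 12 non-ATPase subunits of the 19S cap, and 4 activators. Chromatin immunoprecipitation sequencing was done in HCT116, a line derived from a human colorectal cancer, here overexpressing Flag-tagged VCP. An antibody to VCP and an antibody to the Flag tag were used on chromatin digested with micrococcal nuclease, with 1 library each and an input library alongside. All 3 libraries came from this line, and cells without the tagged protein are not analysed here. The labels name neither the promoter nor the vector behind the tagged VCP, nor whether the cells were 1 clone. The lists of called peaks carry no expression values, so the identity of the line was not checked against markers.

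The 26S proteasome degrades proteins that carry ubiquitin chains. Its 19S cap binds the chain, removes it, unfolds the protein with a ring of ATPases and feeds it into the 20S core, where beta subunits cut it. VCP, also called p97, is a separate ATPase that pulls ubiquitin-tagged proteins out of complexes, membranes and chromatin and hands many of them to the proteasome. The data below show where peaks were called with the VCP or the Flag antibody at the genes of the proteasome. They hold no measure of proteasome protein or activity.

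A gene was counted as having a peak when a summit, the position of most reads in a called peak, lay within 1 kb of either outer end of the gene. With 1 library per antibody no difference could be tested against replicate spread, and values are given as counts with counting intervals. There were 1816 called peaks for VCP and 5719 for Flag, of which 1803 and 5692 lay on the chromosomes. Peak strength is given below as the authors' fold enrichment and as q, the false discovery rate of the peak caller. The median q of all called peaks was 0.416 for VCP and 0.106 for Flag. A listed peak is thus not taken as proof of VCP at a site. Fold enrichment is the reads at the summit over a local background, with 1 read added to each. Reads and background are printed without the added read. Reads at the summit were recovered from the fold enrichment and the -log10 p. They have exact 95% Poisson intervals, which cover counting error only. Coordinates are 1-based on hg38.

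Flag peaks stood at 10 of the 36 proteasome genes (27.8%), against 11.7% of all protein-coding genes. That background includes genes that are silent in these cells, and these files do not tell which genes are active. The 10 genes rested on 10 distinct peaks. VCP peaks stood at 1 of the 36, PSMD11 (2.78%), against 2.34% of all protein-coding genes, so the members' share in the VCP list was near the background. No member had a summit in both lists, against 0.987% of all protein-coding genes, and 0 of the 10 Flag peaks overlapped a VCP peak. Among all protein-coding genes, 196 of the 2334 with a Flag summit also had a VCP summit. Summits in both lists were thus uncommon among all genes too, and 0 of 10 is not read as a trait of the members. All 10 Flag summits also lay within 500 bp of an end, a distance reached by 9.9% of all protein-coding genes, and 13 members (36.1%) had a Flag summit within 3 kb, against 14.5%. For VCP the count stayed at 1 of 36 within 500 bp, against 1.87%, and within 3 kb, against 3.04%.

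**Figure D1:**
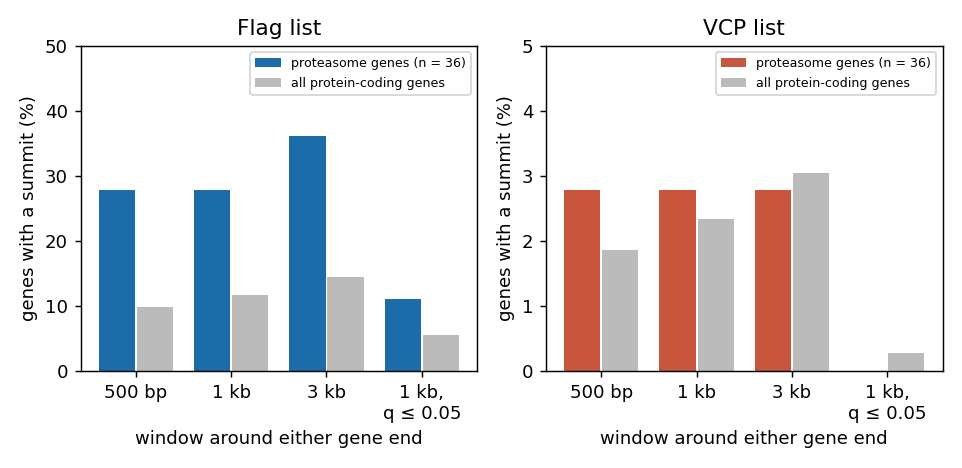
Percentage of genes with a summit near either end, for the 36 proteasome genes (coloured bars) and all protein-coding genes (grey bars), in the Flag list (left panel) and the VCP list (right panel, with its own scale), by window and with peaks limited to a q of at most 0.05. In the Flag list the proteasome genes stood at 27.8% within 1 kb, against 11.7% of all genes, and in the VCP list at 2.78%, against 2.34%.

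Of the 9 peaks at members with a promoter window, 4 had their summit inside the stretch that RefSeq gives as the promoter, 250 bases before to 50 bases after an annotated start. These 4 windows, from the GRCh38.p14 tables of RefSeq, are shown because they hold the base with most reads. Capitals mark matches, on either strand, to 6 short motifs: TGACNNNGC, the antioxidant response element core read by NFE2L1 and NFE2L2; CCAAT, read by NF-Y; GGGCGG, the GC box; CCGGAAG, an ETS site; the site of nuclear respiratory factor 1, which reads GCGC on both sides of a short centre; and TATAAA. PSMD11 lies at chr17:32444260-32444559 on the plus strand, with the VCP summit at base 148. PSMB3 lies at chr17:38752491-38752790 on the plus strand, with the Flag summit at base 57. PSMD6 lies at chr3:64023445-64023744 on the minus strand, with the Flag summit at base 166. PSMD7 lies at chr16:74296564-74296863 on the plus strand, with the Flag summit at base 123.
PSMD11: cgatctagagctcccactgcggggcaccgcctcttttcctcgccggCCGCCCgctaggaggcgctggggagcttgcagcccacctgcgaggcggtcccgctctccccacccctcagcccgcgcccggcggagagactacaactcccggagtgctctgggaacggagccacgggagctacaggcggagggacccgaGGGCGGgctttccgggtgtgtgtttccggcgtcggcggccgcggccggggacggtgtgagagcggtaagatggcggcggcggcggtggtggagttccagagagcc
PSMB3: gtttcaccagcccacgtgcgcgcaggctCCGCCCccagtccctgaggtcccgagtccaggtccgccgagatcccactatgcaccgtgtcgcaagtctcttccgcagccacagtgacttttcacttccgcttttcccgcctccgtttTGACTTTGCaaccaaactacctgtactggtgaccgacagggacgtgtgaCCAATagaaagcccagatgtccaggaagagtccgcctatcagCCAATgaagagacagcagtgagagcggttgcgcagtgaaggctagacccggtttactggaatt
PSMD6: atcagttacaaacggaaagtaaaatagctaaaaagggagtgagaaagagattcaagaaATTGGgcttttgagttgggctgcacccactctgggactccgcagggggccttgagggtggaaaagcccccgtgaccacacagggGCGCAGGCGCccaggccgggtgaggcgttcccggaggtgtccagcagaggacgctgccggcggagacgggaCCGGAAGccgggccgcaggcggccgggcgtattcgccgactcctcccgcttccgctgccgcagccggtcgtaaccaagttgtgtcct
PSMD7: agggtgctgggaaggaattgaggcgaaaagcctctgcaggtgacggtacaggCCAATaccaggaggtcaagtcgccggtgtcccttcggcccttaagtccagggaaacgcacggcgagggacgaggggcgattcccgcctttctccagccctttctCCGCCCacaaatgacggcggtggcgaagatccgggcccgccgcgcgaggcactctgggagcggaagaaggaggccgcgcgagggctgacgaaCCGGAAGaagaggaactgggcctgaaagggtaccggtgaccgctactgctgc

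These windows share no motif of the 6 across all 4 genes. PSMD11, with the VCP peak, held 2 GC boxes and no other match, in a window of 72.3% G and C. PSMB3 held the antioxidant response element core once, CCAAT at 2 places and 1 GC box, and was 57.3% G and C. The PSMD6 window had 1 match each to CCAAT, the ETS site and the site of nuclear respiratory factor 1, and the PSMD7 window 1 each to CCAAT, the GC box and the ETS site. Within these 4 windows no matches overlapped each other. A match describes the letters and is not evidence of a factor at the site.

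Promoter windows were given for 31 of the 36 members, some with several starts, 38 windows in all. The GC box stood in 27 of the 38 (71.1%), against 45.0% of all 35116 windows, which include windows of non-coding genes. The CCAAT motif stood in 18 (47.4%, against 34.6%), TGACNNNGC in 12 (31.6%, against 13.3%) and CCGGAAG in 11 (28.9%, against 10.3%). The site of nuclear respiratory factor 1 was found in 7 (18.4%, against 5.78%) and TATAAA in 4 (10.5%, against 11.5%). The median window was 62.2% G and C for the members and 58.7% for all windows, which bears on motifs made of these letters. Of the 9 members with both a window and a peak in either list, 7 held CCAAT, and of the 22 with a window and no peak, 10 did. TGACNNNGC was held by 2 of those 9, PSMB3 and PSMC4, and by 9 of those 22. The GC box was held by 5 of those 9 and 17 of those 22, and CCGGAAG by 5 and 6. The site of nuclear respiratory factor 1 was held by 1 and 4, and TATAAA by 2 and 2. These splits were not tested.

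In the 20S core, 3 of 14 genes had a Flag peak (21.4%, against 11.7% of all protein-coding genes). None had a VCP peak, against 2.34%. Among the alpha subunits, which form the outer rings and the gate of the core, PSMA3 was the 1 gene of 7. Its peak on chromosome 14 ran from 58244897 to 58245078 with the summit 176 bp downstream of the start. It rested on 11 reads (95% interval 5.49 to 19.7) over a background of 1.85, a fold enrichment of 4.21 and q of 0.0136.

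Among the beta subunits 2 of 7 had a Flag peak (28.6%, against 11.7% of all protein-coding genes). PSMB1, a beta subunit without an active site, had the strongest peak of all members, with 15 reads (8.40 to 24.7) over 2.54, a fold enrichment of 4.52 and q of 0.000687. It ran from 170553083 to 170553263 on chromosome 6, and its summit lay 140 bp inside the gene. PSMB3, another beta subunit without an active site, had 13 reads (6.92 to 22.2) over 3.12, the highest local background among the 10, and a fold enrichment of 3.40. Its peak ran from 38752418 to 38752748 on chromosome 17, also within 1 kb of the long non-coding RNA gene LOC100287808 and the tRNA gene TRN-GTT2-5. The 3 beta genes that encode the cutting subunits, PSMB5, PSMB6 and PSMB7, had no listed peak, and their nearest Flag summits lay 15.6, 151 and 356 kb from a gene end.

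**Figure D2:**
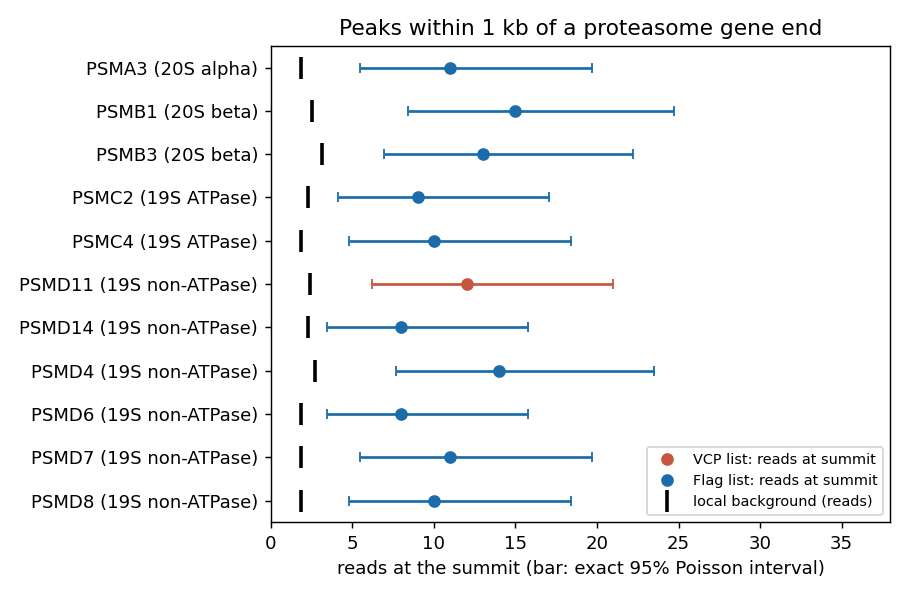
Reads at the summit of each peak within 1 kb of a proteasome gene end (points, blue for the Flag list and red for the VCP list), with exact 95% Poisson intervals (bars) and the local background in reads (black ticks), ordered by class. The 10 Flag peaks rested on 8 to 15 reads and the 1 VCP peak, at PSMD11, on 12, with backgrounds of at most 3.12 reads, and the intervals of all 11 overlap each other.

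In the 19S cap, which makes up 18 of the 36 members, 7 genes had a Flag peak (38.9%, against 11.7% of all protein-coding genes). At a q of at most 0.05 there were 2 in the cap (11.1%) and 2 in the core (14.3%), against 5.53% of all protein-coding genes. The ATPases form the ring that unfolds substrates, and 2 of 6 had a Flag peak. PSMC4 had 10 reads (4.80 to 18.4) over 1.85 on chromosome 19 (39971241 to 39971423), a fold enrichment of 3.86 with q of 0.0509. PSMC2 had 9 reads (4.12 to 17.1) over 2.27 on chromosome 7 (103347705 to 103347902), a fold enrichment of 3.06 with q of 0.348. PSMC1, PSMC3, PSMC5 and PSMC6 had none.

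Of the 12 non-ATPase genes, 5 had a Flag peak (41.7%, against 11.7% of all protein-coding genes). PSMD11 had the VCP peak (8.33%, against 2.34%). At a q of at most 0.05 the Flag count was 2 of 12, against 5.53% of all protein-coding genes. PSMD4, a receptor that binds ubiquitin chains, had 14 reads (7.65 to 23.5) over 2.72, a fold enrichment of 4.03 and q of 0.00560. Its peak was the widest of the 10, 517 bp from 151254638 to 151255154 on chromosome 1, and its summit was the nearest to a gene end, at 33 bp. PSMD14, the enzyme that removes the ubiquitin chain as the substrate enters, had the weakest one, with 8 reads (3.45 to 15.8) over 2.30, a fold enrichment of 2.73 and q of 0.621. It ran from 161307970 to 161308175 on chromosome 2, outside the gene.

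PSMD7, which pairs with PSMD14 in the lid of the cap, had 11 reads over 1.85 on chromosome 16 (74296546 to 74296729), a fold enrichment of 4.21 and q of 0.0136, the same values as PSMA3. The lid genes PSMD8 and PSMD6 followed with 10 and 8 reads over 1.85. PSMD8 had a fold enrichment of 3.86 on chromosome 19 (38374763 to 38374983) with q of 0.0509, and PSMD6 of 3.16 on chromosome 3 (64023494 to 64023720) with q of 0.348. Read numbers this small take few values, so peaks at the same background tie exactly. ADRM1, another ubiquitin receptor gene, and the scaffold genes PSMD1 and PSMD2 had no peak, nor had PSMD3, PSMD12 and PSMD13.

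The VCP peak at PSMD11, a lid subunit gene, ran from 32444295 to 32444663 on chromosome 17, with its summit 103 bp upstream of the start. It rested on 12 reads (6.20 to 21.0) over 2.40, a fold enrichment of 3.82 and q of 0.155. Of the 395 VCP peaks at protein-coding gene ends, 67.3% had a lower fold enrichment. The nearest Flag summit lay 894 kb away, so the 1 member with a VCP peak stood in a stretch without Flag peaks. From the 10 Flag peaks at members, the nearest VCP summit lay at least 31660 bp away.

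None of the 4 activator genes had a Flag or VCP summit within 1 kb, against 11.7% and 2.34% of all protein-coding genes. With 4 genes this is not read as a trait of the class. PSME1 and PSME2 encode the interferon-inducible activator, PSME3 its nuclear relative and PSME4 a large activator linked to the breakdown of histones. PSME2 missed the window narrowly: a Flag summit on chromosome 14 at 24147620 lay 1010 bp from its end, with 14 reads (7.65 to 23.5) over 1.85, a fold enrichment of 5.27 and -log10 q of 3.90. Its fold enrichment and -log10 q were above those of all 10 Flag peaks inside the window. It lay within 1 kb of RNF31, which encodes a ubiquitin ligase subunit and starts 265 bp from PSME2 on the other strand. PSME4 had a Flag summit 1459 bp inside the gene, at the end away from its start, which lay 105 kb off (8 reads over 1.85, fold enrichment 3.16).

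As a group the Flag peaks at members were of ordinary strength. The median fold enrichment of the 10 was 3.86 (range 2.73 to 4.52), against 3.67 for all 2027 Flag peaks at protein-coding gene ends (quartiles 3.16 and 4.21). By -log10 q both medians were 1.29. The median peak at a member had 10.5 reads, against 12, and was 202 bp wide, against 251 bp. At 5 of the 10 members the background was the lowest of the list, 1.85 reads, against 28.7% of all Flag peaks at gene ends. By fold enrichment PSMB1 stood above 80.9% of the gene-end peaks and PSMD14 above 6.71%. A q of at most 0.05 was reached at 4 members (11.1%, against 5.53% of all protein-coding genes): PSMB1, PSMD4, PSMA3 and PSMD7. Another 3, PSMB3, PSMC4 and PSMD8, shared a q of 0.0509 and lay just past that threshold. In the VCP list no member reached it, against 0.272% of all protein-coding genes.

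**Figure D3:**
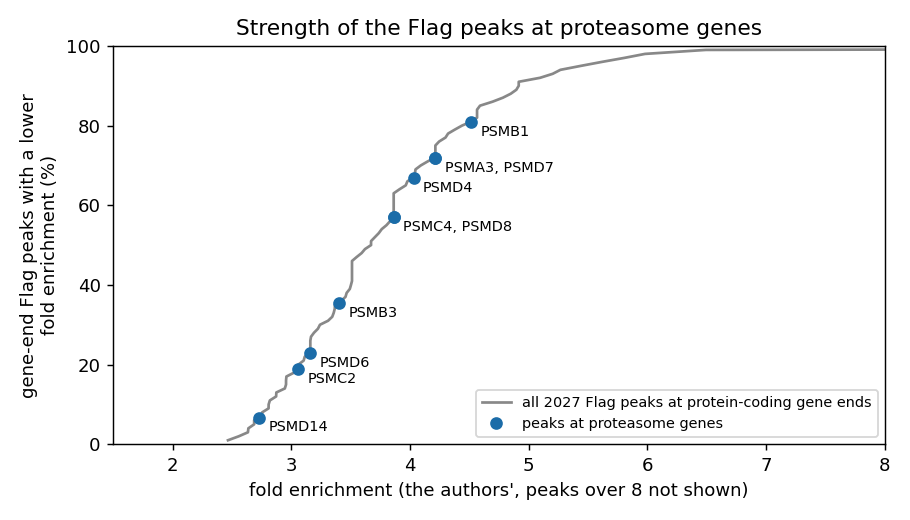
Fold enrichment of Flag peaks (horizontal axis, the authors' values) against the percentage of gene-end Flag peaks with a lower value (vertical axis), as a grey curve for all 2027 peaks and blue points for the 10 at proteasome genes. The members spread along the curve from 6.71% at PSMD14 to 80.9% at PSMB1.

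Where a start was given, summits at members stood at starts and not at far ends. The promoter table gave a start for 8 of the 10 members with a Flag peak, and at all 8 the summit lay within 500 bp of it. Among all protein-coding genes with a Flag peak at an end and a given start, 91.0% of 1960 had it within 1 kb of a start, and 89.6% of these lay within 500 bp. The members' summits were 4 upstream and 4 downstream of the start, against 62.9% upstream among all such genes. PSMD14 (400 bp), PSMB3 (194 bp), PSMD7 (128 bp) and PSMD6 (85 bp) lay upstream. PSMA3 (176 bp), PSMC4 (214 bp), PSMC2 (237 bp) and PSMD8 (250 bp) lay downstream. The median distance was 204 bp for the 8 members and 156 bp for all such genes. For PSMB1 and PSMD4 the distance to the nearer gene end, given above, is the measure used.

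**Figure D4:**
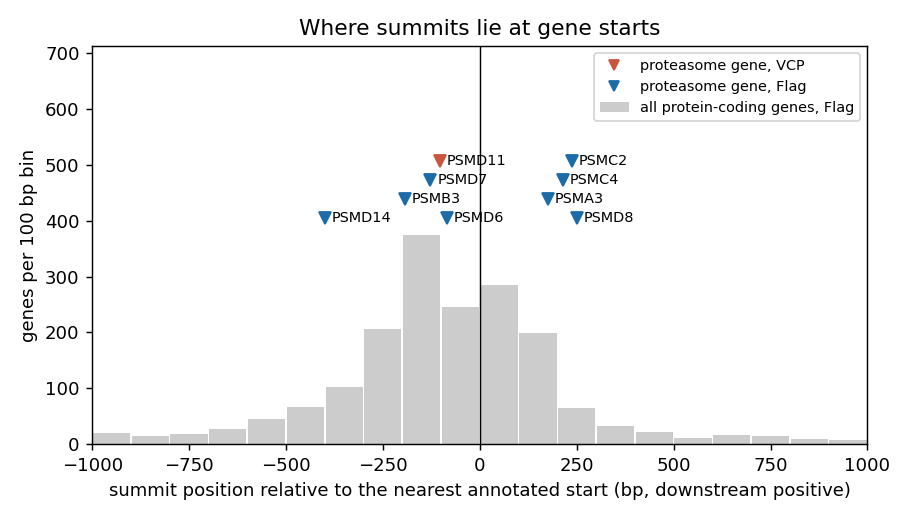
Position of the summit relative to the nearest annotated start (bp, downstream positive), as grey bars counting all protein-coding genes with a Flag summit within 1 kb of a start and as triangles for proteasome genes (blue for the Flag list, red for the VCP list; their height has no meaning). The 9 members shown lay between 400 bp upstream (PSMD14) and 250 bp downstream (PSMD8).

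Promoters shared with another protein-coding gene were counted from annotated starts. Of the 31 members with an annotated start, 5 had the start of another protein-coding gene within 1 kb on the other strand, facing away: PSMA2 with MRPL32 (202 bp), PSMC5 with FTSJ3 (58 bp), PSMD13 with SIRT3 (45 bp), PSME2 with RNF31 (265 bp) and PSME4 with ACYP2 (120 bp). None of these 5 had a Flag summit within 1 kb, and 8 of the other 26 did. PSMB1 and PSMD4, which had a Flag peak, had no annotated start and are not among the 26. Pairs with a missing start could not be placed: PSMA1 with PDE3B (ends 142 bp apart), PSMA7 with SS18L1 (375 bp) and PSMB7 with NEK6 (158 bp). The 0 of 5 rests on 10 bp, since the Flag summit described above lies 1010 bp from PSME2 and within 1 kb of its partner RNF31, and PSME2 counts when any base of the peak is used. Among all protein-coding genes the shares ran the other way, with 23.2% of 1946 genes with such a partner and 10.9% of 13896 without. With 5 genes, 1 of them at the edge of the window, this is a description and not a tested difference.

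A wider count took any end of another protein-coding gene within 1 kb of any end of the member. There were 15 such members (41.7%), against 28.5% of all protein-coding genes, and 2 of the 15 had a Flag peak, PSMC2 and PSMD8, against 8 of the other 21. Among all genes 18.5% of those with such a neighbour and 9.06% of those without had one. Of all 2027 Flag peaks at protein-coding gene ends, 404 (19.9%) lay within 1 kb of more than 1 such gene. Of the 10 at members, only the PSMC2 peak did. Its partner PMPCB, a mitochondrial processing peptidase gene, lies on the same strand, with its end 18 bp from PSMC2, so the summit belongs to the start of PSMC2 and the far end of PMPCB. At PSMD8 the neighbour GGN meets the far end of the gene, while the summit stood at the start.

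Of the 36 members, 25 had no summit within 1 kb in either list. The absence of a listed peak is not absence of VCP. At the lowest background the weakest listed peaks rested on 7 reads in each list, so weaker enrichment was not detectable at this depth. Flag summits lay between 1 and 10 kb from an end at 5 members, PSME2, PSME4, PSMC6 (1.66 kb, beside STYX), PSMA1 (5.18 kb, beside COPB1) and PSME1 (8.66 kb, the RNF31 summit again). In all, 15 members (41.7%) had a Flag summit within 10 kb, against 20.2% of protein-coding genes, and 1 member had a VCP summit there (2.78%, against 4.47%). The 26 members without a Flag peak lay a median of 111 kb from the nearest Flag summit, against 117 kb for all genes without one. The farthest was PSMD2, at 1083 kb.

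**Figure D5:**
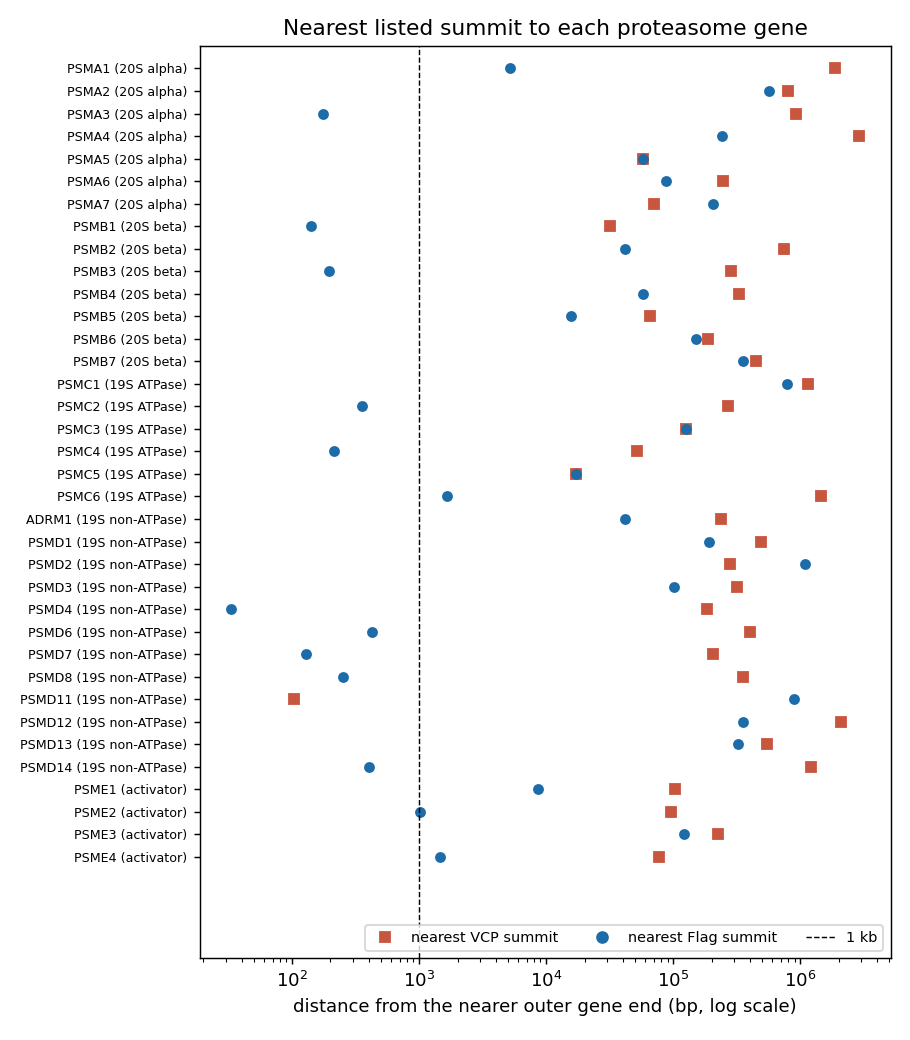
Distance from the nearer outer end of each of the 36 proteasome genes to the nearest summit of the VCP list (red squares) and of the Flag list (blue circles), on a log scale in bp, with the 1 kb window as a dashed line. Flag summits of 10 members and the VCP summit of PSMD11 lie left of the line, and PSME2 lies just right of it at 1010 bp.

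The other genes of the pathway were taken from a list of 32 that encode assembly factors, alternative subunits, an inhibitor, associated ubiquitin proteins and regulators. A Flag peak stood at 8 of them (25%) and a VCP peak at 1 (3.13%), read against the same 11.7% and 2.34%. The Flag share was nearer to the background in stricter counts, with 4 of 32 (12.5%) within 500 bp, against 9.9% of all protein-coding genes, and 2 of 32 (6.25%) at a q of at most 0.05, against 5.53%. Regulators had 3 of 6. AKIRIN2, which brings proteasomes into the nucleus, had 12 reads (6.20 to 21.0) over 1.85, a fold enrichment of 4.57 and q of 0.00310. NFE2L1, the transcription factor that drives proteasome genes and that VCP draws out of the endoplasmic reticulum, had 15 reads (8.40 to 24.7) over 3.04, a fold enrichment of 3.96 and q of 0.00422. Its peak also lay within 1 kb of COPZ2. NFE2L2, its relative in the oxidative stress response, had 12 reads over 3.17 and q of 0.154. NFE2L3, DDI2 and NGLY1 had none.

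Among assembly factors PSMD5 (fold enrichment 3.61) and PSMG3 (3.15) had a Flag peak, 2 of 9 (22.2%, against 11.7% of all protein-coding genes). Among alternative or further subunits PSMB10, an immunoproteasome gene, was the 1 of 6, with a weak peak (2.69, q of 0.597). Of the 10 associated genes, ECPAS (3.86) and UBQLN4 (3.21, a peak shared with LAMTOR2) had a Flag peak. ZFAND5 had the VCP peak, with 7 reads over 1.74, a fold enrichment of 2.92 and q of 0.882. PSMF1, the proteasome inhibitor gene, had none within 1 kb of its outer ends.

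PSMF1 was the gene of this pathway with a summit in both lists, at a start that lies inside its outer ends. It was named after its values were seen. No share of all protein-coding genes with both summits at a start is given, so this is not read as a trait of the pathway. On chromosome 20 the Flag peak ran from 1118393 to 1118638 and the VCP peak from 1118429 to 1118663, and they overlapped. The VCP summit lay 44 bp upstream of the start, with 12 reads (6.20 to 21.0) over 1.74, a fold enrichment of 4.74 and q of 0.0202. At the Flag summit, 84 bp upstream, there were 21 reads (13.0 to 32.1) over 2.27, with a fold enrichment of 6.73 and q of 3.7e-09. Of the Flag peaks at outer gene ends 99.3% had a lower fold enrichment, and of the VCP peaks 93.7%. Both summits lay more than 5 kb from the nearer outer end of the gene, outside the window used for the counts. Its promoter window, chr20:1118352-1118651 on the plus strand, is shown because it holds both summits, with capitals for the same 6 motifs, the Flag summit at base 167 and the VCP summit at base 207.
PSMF1: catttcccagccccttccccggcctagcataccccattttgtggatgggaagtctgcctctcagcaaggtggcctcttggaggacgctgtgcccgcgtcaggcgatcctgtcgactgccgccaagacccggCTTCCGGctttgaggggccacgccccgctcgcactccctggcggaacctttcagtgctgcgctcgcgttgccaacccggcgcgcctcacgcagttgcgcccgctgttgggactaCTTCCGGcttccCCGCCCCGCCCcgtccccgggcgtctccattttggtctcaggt

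The capitals in this window are 2 matches to CCGGAAG and 2 to GGGCGG, all read on the opposite strand, and the 2 GC boxes overlap by 1 base. When every annotated start was used in place of the outer ends, 7 of the 29 other proteasome genes with a start had a Flag summit within 1 kb, against 12.6% of 15842 protein-coding genes. For VCP there were 3, against 2.37%: ZFAND5, PSMF1 and the assembly factor gene PSMG2 (15 reads over 3.42, fold enrichment 3.62, q of 0.0908). The members with a start numbered 8 of 31 for Flag (25.8%) and 1 of 31 for VCP (3.23%) by the same measure, and no member was added.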

How the data were processed

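The called peaks of 2 libraries, VCP and Flag, were analysed; input signal is not analysed here. Per the labels' protocols, chromatin was fixed for 10 minutes in 1% formaldehyde and digested with micrococcal nuclease. Per the submitters' processing notes, the tools were bcl2fastq 2.17, Trimmomatic 0.33, Bowtie 1.1.2 and MACS2 2.1.0, on hg38; no source used here gives their settings.

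The deposited fold enrichment is the authors' ratio of reads at the summit over a local background, with a pseudocount of 1 read on both. The deposited -log10 p-values and -log10 q-values are the peak caller's. The deposited score is -log10 p times 10, cut to a whole number, and was not used. No deposited peak had a -log10 p under 3.00. Peaks were called per library.

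Gene ends came from RefSeq GRCh38.p14 (58961 of 59792 rows, those on chromosomes), and starts and strands from its promoter table. For each whole number of reads, the fold enrichment and the pseudocount of 1 read gave a background. The reads at a summit are the number whose Poisson tail at that background matched the -log10 p. All peaks matched within 0.001. The code was tested on simulated data (Python 3.11.15, scipy 1.17.1). Shares and medians are described without tests, since each antibody has 1 library. The proteasome genes, lists, motifs and rules were chosen with earlier results of these data known. Every member or listed pathway gene with a peak is named. PSMF1 and PSMG2 at inner starts were named after their values were seen. Alternatives were stricter q thresholds, other windows, overlap rules, gene sets, starts only, 1 gene per peak and equal list sizes.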

Additional observations from a re-analysis of the deposited data

How the results depend on the processing

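Of the 103 alternative values computed, 68 stayed within 1.5 times the reported count (or within the interval of the median) and 35 did not; the cause was not tested beyond the alternatives' own construction, which keeps fewer peaks or moves the window. With peaks at a q of at most 0.05, members with a Flag peak numbered 4, on 4 distinct peaks (20S beta 1, 19S ATPase 0, 19S non-ATPase 2), with 0 shared with another gene; members with a VCP peak numbered 0, and the other proteasome genes 2 for Flag (6.25%, against 5.53% of all protein-coding genes) and 0 for VCP. At -log10 q of at least 5 all of these counts were 0, against 0.7% of all protein-coding genes for Flag and 0.00503% for VCP. With the Flag list cut by -log10 q to the VCP list's length, 4 members had a Flag peak (11.1%, against 5.33%; 20S beta 1, 19S ATPase 0, 19S non-ATPase 2). Within 500 bp the other proteasome genes had 4 for Flag (12.5%, against 9.9%). Within 3 kb the activators had 2, and 5 member peaks also lay near another protein-coding gene. Counting each peak for 1 gene gave 1 ATPase gene and 0 shared peaks, since the PSMC2 peak went to PMPCB. Counting any base of the peak gave 1 activator gene, PSME2, and 2 shared peaks. With all RefSeq genes, 4 member peaks were shared. With starts only, 20S beta had 1, shared peaks were 0 and the other proteasome genes had 3 for VCP. Measured by -log10 q, the medians of members and of all gene-end peaks were both 1.29. The overlap between lists at members was 0 for overlaps of at least 1 bp. The stricter overlap rules took subsets of those overlaps, so they could give only 0 and add no support. Small read numbers limit every count here, since the Flag peaks at members rest on 8 to 15 reads and each antibody has 1 library.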

Other observations

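At 3 members the closest summits of both lists lay within 500 bp of each other, and at 2 of these, PSMC5 and PSMC3, the peaks overlapped. No share over all protein-coding genes is given for this count, so it is not read as a trait of the members. Near PSMC5 the VCP summit lay 17.2 kb and the Flag summit 17.1 kb from the gene on chromosome 17, in overlapping peaks of 13 VCP reads (fold enrichment 3.41) and 21 Flag reads (5.14). Near PSMC3 the summits lay 127 kb from the gene on chromosome 11, in overlapping peaks of 11 VCP reads (fold enrichment 3.82) and 13 Flag reads (4.47). Neither of these sites was within 1 kb of a protein-coding gene end. Near PSMA5, a core alpha subunit gene, the VCP summit lay 57.6 kb and the Flag summit 57.8 kb from the gene on chromosome 1, 217 bp apart in peaks that did not overlap, both within 1 kb of ATXN7L2.

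Beyond PSMD8, a second Flag summit lay 3.96 kb outside the gene, within 1 kb of an end of GGN and of SPRED3. It had 12 reads (6.20 to 21.0) over 2.22 and a fold enrichment of 4.04.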
